A study of Mus musculus with 5 samples.

Results

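The nuclear-encoded proteins of the mitochondrial ribosome were followed in ribosome profiles of mESCs, mouse embryonic stem cells that were cultured with LIF to keep them self-renewing. Members were the genes with a symbol of the form Mrpl or Mrps followed by a number, a protein-coding gene type and a protein-coding transcript in Gencode M21. This rule uses names and annotation and no measured value. It gave 78 genes out of 21914 protein-coding genes with a coding transcript, of which 49 carry large subunit symbols (Mrpl) and 29 carry small subunit symbols (Mrps). All 78 genes reached a level of 1 CPM (the read count scaled by library depth) in at least 1 library and were tested, against 12374 of all protein-coding genes. Each gene is represented by its coding transcript with the highest mean CPM.

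The study compared standard RIBO-seq (3 libraries) with AHARIBO RIBO-seq (2 libraries), and the labels call the libraries of each group biological replicates. In both groups, cells were exposed to the elongation blocker cycloheximide before lysis, and the lysate was digested with RNase I so that ribosome-protected fragments remained. For standard RIBO-seq, ribosomes were pelleted through a sucrose cushion. The study describes standard RIBO-seq as made from the input of the capture, without saying which libraries share a lysate. For AHARIBO RIBO-seq, biotin was clicked onto nascent chains that carry the methionine analogue L-azidohomoalanine (AHA), and the complexes were collected on magnetic beads, with no cushion described. All 5 libraries are labelled as untreated embryonic stem cells. The labels name neither the line nor an AHA dose for these libraries. For AHA labeling the study describes methionine depletion, AHA and the anisomycin-based blocker sBlock, and it names the depletion as a limitation. Whether the cells of the standard libraries went through these steps is not stated. The capture chemistry, the absence of a cushion and any such difference in cell treatment cannot be told apart. The question put to the members here is whether ribosomes selected through their AHA-labeled nascent chains give the same profile of the mitoribosomal mRNAs as ribosomes pelleted without selection.

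Mitochondria keep their own ribosome, which makes a few hydrophobic subunits of the respiratory chain from mRNAs encoded in mitochondrial DNA. Its rRNAs are also mitochondrial, but its proteins are encoded in the nucleus, translated by cytosolic ribosomes and imported. The footprints counted here are therefore those of cytosolic ribosomes making mitoribosomal proteins, not those of the mitoribosome at work. Part of these proteins descend from bacterial ribosomal proteins, and part were added during the evolution of mitochondria. Since AHA enters a nascent chain in place of methionine, each in-frame ATG codon is a position where a label can be present. The study states that the first methionine is removed from most proteins during translation, and that a chain can be captured once it exits the ribosome. Counts of ATG codons are therefore not counts of labels open to capture.

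The depth after duplicate removal was 6403651 to 11150527 reads a library, and 3 reads, taken as the floor, equal 0.262 to 0.476 CPM. The 78 members held 11178 to 19274 reads a library, with 41 to 559 reads on a single member. All 10 stem cell markers examined were above 1 CPM in every library, with summed levels of 1500 to 1606 CPM in standard and 1349 to 1470 CPM in AHARIBO RIBO-seq. Among them, Pou5f1, a core pluripotency factor, stood at 214 to 276 CPM. The summed levels of 4 fibroblast markers stayed at 3.86 to 5.15 CPM in standard and 4.11 to 4.39 CPM in AHARIBO RIBO-seq. The 3 endoderm markers summed to 1.93 to 3.97 CPM and the 2 mesoderm markers to 0.784 to 2.38 CPM over all libraries. The 4 neural markers summed to 42.8 to 44.1 CPM in standard and 39.6 to 40.0 CPM in AHARIBO RIBO-seq, and the tubulin Tubb3 alone held 31.7 to 36.8 CPM.

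The coding sequences below are shown because the members differ in how many methionine codons they offer and in base composition, and both are read against the measurements further on. They are the first 150 bases (50 codons) from the start codon, 5′ to 3′, in Gencode M21 transcripts on the GRCm38 build. In-frame ATG codons, the methionine positions, are in capitals. The first 4 belong to the members that were called lower in AHARIBO RIBO-seq. The last 2 belong to Mrpl1 and Mrps31, which were higher there without passing the test and were picked after their values were seen. Mrpl41, which had the largest positive log2 fold change (0.37), is not shown.
Mrps24: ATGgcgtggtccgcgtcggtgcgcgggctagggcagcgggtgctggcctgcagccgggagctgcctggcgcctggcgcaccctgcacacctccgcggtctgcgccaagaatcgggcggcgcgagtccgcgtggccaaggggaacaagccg
Mrpl52: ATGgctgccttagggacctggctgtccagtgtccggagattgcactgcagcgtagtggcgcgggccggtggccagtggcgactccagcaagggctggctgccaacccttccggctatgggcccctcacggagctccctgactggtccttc
Mrpl2: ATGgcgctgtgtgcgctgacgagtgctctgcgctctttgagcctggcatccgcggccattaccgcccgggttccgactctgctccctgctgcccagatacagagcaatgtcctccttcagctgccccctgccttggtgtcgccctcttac
Mrps26: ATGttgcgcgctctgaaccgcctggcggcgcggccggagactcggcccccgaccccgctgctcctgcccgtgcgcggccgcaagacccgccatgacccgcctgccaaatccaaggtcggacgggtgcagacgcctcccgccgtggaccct
Mrpl1: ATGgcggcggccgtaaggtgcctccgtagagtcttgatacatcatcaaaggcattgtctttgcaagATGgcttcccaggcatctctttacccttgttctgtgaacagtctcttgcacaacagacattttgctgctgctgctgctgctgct
Mrps31: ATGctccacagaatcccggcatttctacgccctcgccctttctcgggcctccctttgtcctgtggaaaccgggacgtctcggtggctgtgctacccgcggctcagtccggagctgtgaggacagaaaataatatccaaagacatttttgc

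The Mrps24 transcript lies on chromosome 11 (chr11:5703983-5707687, minus strand), and its coding sequence of 167 codons has 3 methionine codons, the second at codon 96. Mrpl52 lies at chr14:54426909-54429756 on the plus strand, with 3 methionine codons in 121 and the second at codon 59. Mrpl2 lies at chr17:46646229-46650132, with 8 methionine codons in 306. In Mrps26 (chr2:130563742-130568695), 3 of 200 codons are methionine and the second comes at codon 106. None of these 4 has a second methionine codon among the 50 codons shown, and neither do 49 of all 78 members, of which 40 were lower in AHARIBO RIBO-seq (median log2 fold change -0.11). Of the other 29, 21 were lower (median -0.09), among them Mrpl34, with the second methionine at codon 30, Mrpl57 at codon 35 and Mrpl23 at codon 46. Mrpl1, at chr5:96209493-96266727, has 9 methionine codons in 336, the second at codon 23. Mrps31 (chr8:22411361-22429665) has 6 in 384, the second at codon 95. Mrpl41, whose sequence is not shown, has 3 in 135, the second at codon 18. The stretches shown also differ in base composition. G and C make up 74.7% of the 150 bases in Mrps24 and 74.0% in Mrps26, against 66.7% in Mrpl52, 63.3% in Mrpl2, 56.0% in Mrps31 and 50.7% in Mrpl1.

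Levels are compared between genes as CPM per kilobase of coding sequence, averaged over the 5 libraries. Such a level joins the abundance of an mRNA and its ribosome load, which cannot be told apart here. On this scale the members formed a narrow band well above the typical gene. Their median was 34.9, with 10% of members below 20.3 and 10% above 61.1, a ratio of 3.01 between these limits. Over all protein-coding genes tested, the median was 6.92 and the corresponding ratio was 55.4. All 78 members were above the median of the coding genes, and the lowest of them stood at the 69.4th percentile. Of the 78, 72 lay within 2-fold of the member median. The ratio between the limits was 3.02 from the standard libraries and 2.82 from the AHARIBO libraries. Across the 78 members, log2 levels per kilobase in any pair of libraries correlated with Pearson's r of 0.94 to 0.97, as a description across genes that share depth and length within a library.

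The 5 highest members per kilobase were Mrps24 at 74.7, Mrpl17 at 71.7, Mrpl34 at 65.3, Mrpl12 at 64.5 and Mrpl20 at 64.3. Mrps24 is the homologue of bacterial S3 and lines the entry of the mRNA channel. Mrpl12 is the stalk protein that is present in several copies on each ribosome and also binds the mitochondrial RNA polymerase. Mrpl17, Mrpl34 and Mrpl20 are large subunit proteins with bacterial homologues, as is Mrpl19 among the lowest. The 5 lowest members were Mrpl41 at 15.2, Mrpl19 at 15.9, Mrpl16 at 16.7, Mrpl1 at 17.2 and Mrps22 at 17.9. Mrpl16 and Mrpl1 are homologues of bacterial proteins near the tRNA sites, and Mrpl1 builds the stalk on the tRNA exit side. Mrpl41 and Mrps22 have no bacterial counterpart. The span from lowest to highest was 4.92-fold. Large subunit symbols had a median of 38.5 and small subunit symbols one of 29.7, and the 2 ranges overlapped almost entirely, at 15.2 to 71.7 and 17.9 to 74.7.

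**Figure D1:**
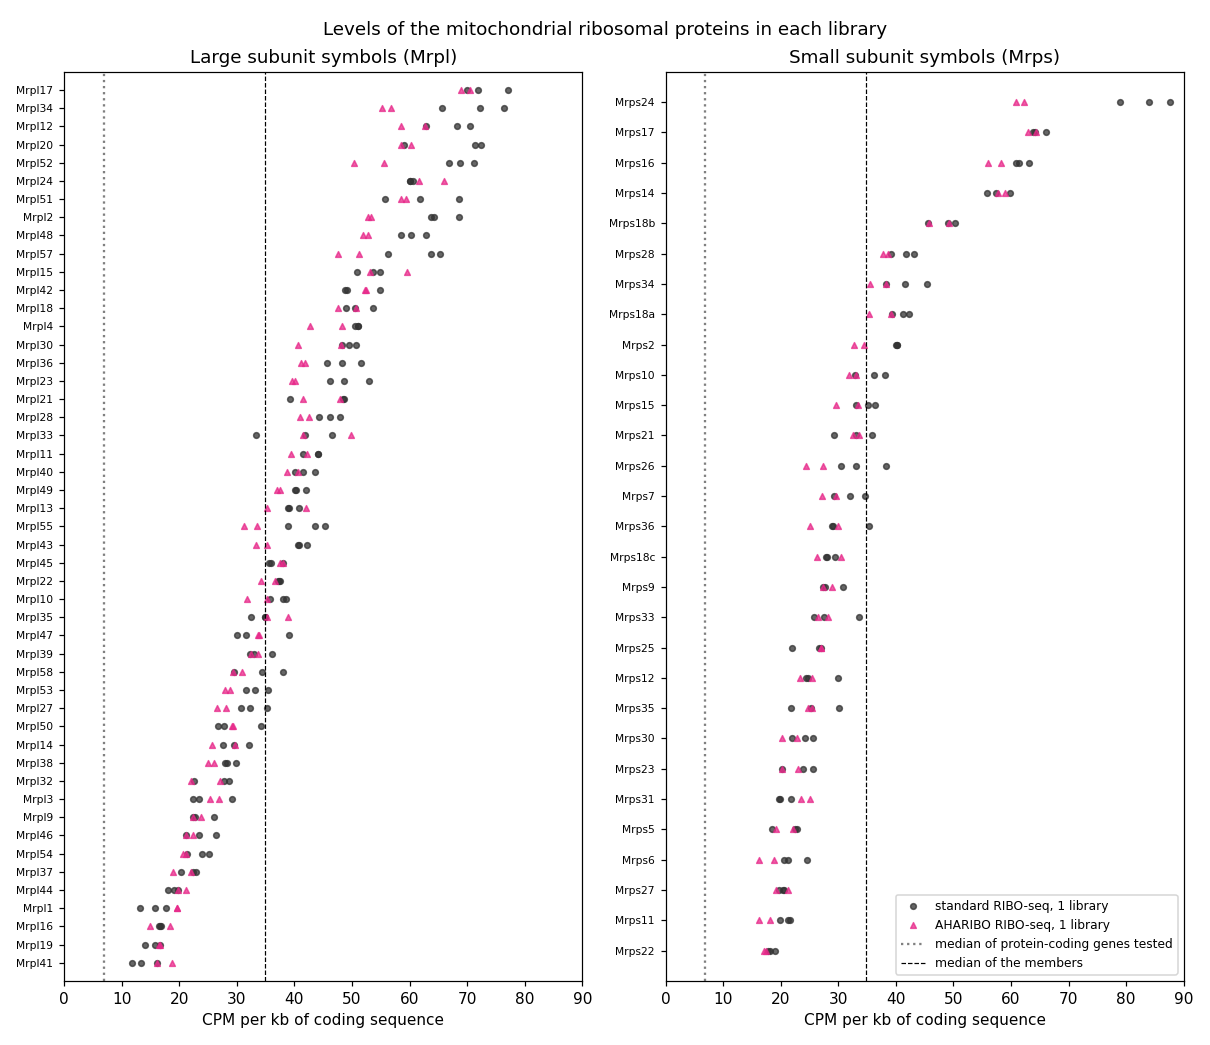
Level of each member in each library, in CPM per kilobase of coding sequence, with large subunit symbols on the left and small subunit symbols on the right. Circles are the 3 standard and triangles the 2 AHARIBO libraries, the dashed line is the member median (34.9) and the dotted line the median of all protein-coding genes tested (6.92). Every member lies to the right of the dotted line in every library, and the libraries of a gene lie close to each other compared with the span between genes.

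These levels rest on the length and on the transcript used. With log2 coding length, log2 levels per kilobase had r = -0.41 across the 78 members and r = -0.46 across the 12374 coding genes, so that a shorter coding sequence went with a higher value in both. Coding length is the divisor of the level, so part of a negative r is built in. The levels of the members were not compared with those of coding genes of similar length. Divided by the whole transcript length, the member median was 15.4 against 3.25 for the coding genes, and the ratio of the limits rose to 5.75. Mrpl17, whose transcript with the highest count is a long one, then dropped from 71.7 to 5.18, and its next transcript had 96.9% of that count. Ranks by the 2 lengths had a Spearman correlation of 0.43 across the 78 members, so the order of single members is not settled by these data. With counts summed over the transcripts of a gene, Mrps17 came first at 582 CPM per kilobase, while Mrpl12 was in place 33 and Mrpl34 in place 50 of the 78. The ratio of the limits was then 6.75.

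Reads that match more than 1 transcript limit single members as well. In 38 members with over 1 coding transcript, the second transcript reached more than 90% of the highest in 16. The methods do not say how such reads were counted, so a read on a shared exon may stand in the count of each transcript. Windows of 30 nt of the coding sequence were therefore searched in the transcripts of all other genes. For 46 members no window was found elsewhere. The coding sequence of Mrpl23, an exit tunnel protein, was found whole in other genes, chiefly the pseudogene Mrpl23-ps1. That pseudogene was listed at 22.8 ± 1.46 CPM in standard (SD, n = 3) and 18.5 ± 0.345 CPM in AHARIBO RIBO-seq (SD, n = 2), next to 21.6 ± 1.499 and 17.5 ± 0.178 CPM for Mrpl23 itself. Mrps36 and Mrpl53 were also found whole in other genes. For Mrps36, now placed with the 2-oxoglutarate dehydrogenase complex, these included Mrps36-ps1 at 7.51 CPM and Mrps36-ps2 at 6.73 CPM. For Mrpl53, a stalk base protein, the overlapping coding gene Gm42688 was listed at 11.6 CPM. Values of these 3 members cannot be assigned to 1 gene. The share of coding windows found elsewhere was also high in other members named below, at 53.1% for Mrps5, 51.6% for Mrpl22, 49.5% for Mrps18c and 48.4% for Mrps18b.

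Between the methods, 4 of the 78 members passed an adjusted p of 0.05 in edgeR's quasi-likelihood test, which is 5.13% of the members, and all 4 were lower in AHARIBO RIBO-seq. The background was of the same size. Over all 66972 transcripts tested the share called was 4.51%, and over the highest coding transcripts of the 12374 coding genes it was 5.12% in both directions and 2.53% for lower in AHARIBO RIBO-seq. The number of members called is thus no result about the members. At an unadjusted p under 0.05 there were 16 members (20.5%), 13 lower and 3 higher, next to 19.4% of the coding genes.

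Mrps24 was the member with the lowest adjusted p. Its standard libraries held 43.9, 42.1 and 39.5 CPM, and its AHARIBO libraries held 31.2 and 30.5 CPM. The groups did not overlap, and the gap between them was wider than the range within either. The log2 fold change was -0.44 (SE 0.089, adjusted p = 0.00138 in edgeR's quasi-likelihood test).

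Mrpl52, a mitochondria-specific protein of the large subunit that lies at the central protuberance, stood at 25.0, 24.3 and 25.9 CPM in standard and 18.3 and 20.2 CPM in AHARIBO RIBO-seq. Every AHARIBO value was below every standard value, with a log2 fold change of -0.38 (SE 0.102, edgeR adjusted p = 0.0202). Mrpl2 is the homologue of the bacterial protein L2, which sits close to the peptidyl transferase center. Its values were 58.5, 58.9 and 63.0 CPM against 48.9 and 48.4 CPM, again without overlap, and the log2 fold change was -0.30 (SE 0.083, edgeR adjusted p = 0.0240).

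Mrps26, a small subunit protein without a bacterial counterpart, had 23.0, 18.3 and 19.8 CPM in standard and 16.4 and 14.6 CPM in AHARIBO RIBO-seq. Its groups did not overlap, and standard replicate 2 came closest to the AHARIBO values. The log2 fold change was -0.40 (SE 0.114, edgeR adjusted p = 0.0325), and 26.8% of its coding windows occur in other genes. Among 14 alternative settings, the call of Mrps24 was lost in 1, that of Mrpl52 in 7, that of Mrps26 in 8 and that of Mrpl2 in 9, with the direction kept in each. Without AHARIBO replicate 1, for instance, Mrpl52 and Mrpl2 both had a log2 fold change of -0.31, with edgeR adjusted p of 0.370 for Mrpl52 and 0.177 for Mrpl2.

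Close to the threshold on the lower side were Mrpl55 and Mrpl34, the first of which was picked after its values were seen. Mrpl55, a large subunit protein with a bacterial homologue, had 16.6, 14.8 and 17.3 CPM against 11.9 and 12.8 CPM (log2 fold change -0.39, edgeR adjusted p = 0.0512). Mrpl34 had 19.9, 18.1 and 21.1 CPM against 15.2 and 15.7 CPM (log2 fold change -0.34, edgeR adjusted p = 0.0630). Neither overlapped between the groups. Mrpl55 was called lower in 3 of the 14 settings, with 1 CPM required in every library, with RLE size factors and without standard replicate 2. Mrpl34 was called lower in 2, with duplicate reads kept (edgeR adjusted p = 0.0385) and without standard replicate 2 (edgeR adjusted p = 0.0392).

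No member was called higher in AHARIBO RIBO-seq. The largest positive log2 fold changes were those of Mrpl41 (0.37, SE 0.173), Mrpl1 (0.32, SE 0.113) and Mrps31 (0.25, SE 0.097). Mrpl1 held 17.8, 15.9 and 13.3 CPM in standard and 19.8 CPM in each AHARIBO library (edgeR adjusted p = 0.0990). Mrps31, a mitochondria-specific small subunit protein, held 22.7, 25.1 and 22.8 CPM against 28.9 and 27.1 CPM (edgeR adjusted p = 0.139). Both had every AHARIBO library above every standard library. Mrpl41 was the member with the fewest reads, at 5.38, 4.75 and 6.50 CPM against 6.56 and 7.59 CPM (edgeR adjusted p = 0.227), and its groups were separated by less than 0.1 CPM. Of its coding windows, 51.1% occur in other genes.

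**Figure D2:**
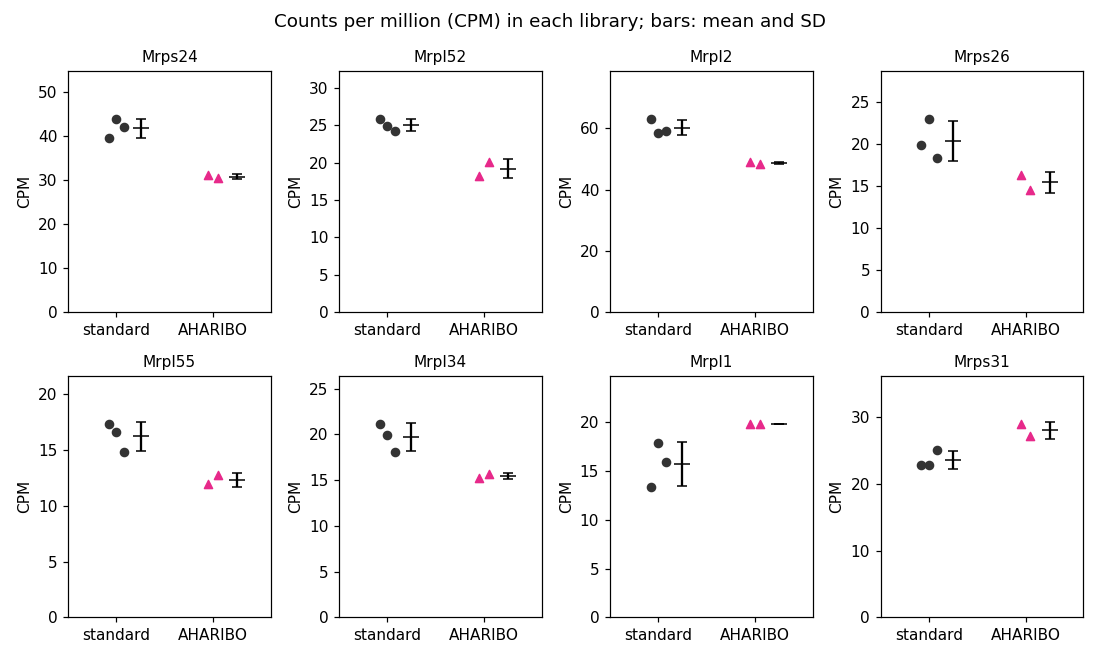
CPM in each library for 8 members, with circles for standard and triangles for AHARIBO RIBO-seq, and a bar for the mean and SD of each group; each axis starts at 0. In Mrps24, Mrpl52, Mrpl2, Mrps26, Mrpl55 and Mrpl34 both AHARIBO libraries lie below the 3 standard libraries, and in Mrpl1 and Mrps31 both lie above.

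Small differences in one direction ran through the list. The median log2 fold change of the 78 members was -0.10, and 61 of them (78.2%) were below 0, where the coding genes had a median of -0.00 and 50.6% below 0. Single differences were small, from -0.44 to 0.37, with a median SE of 0.103. In 30 members (38.5%) both AHARIBO libraries were below all 3 standard libraries, while this held for 17.1% of the coding genes. Both were above in 5 members (6.41%), against 17.2% of the coding genes. Relative to the standard mean of each gene, the median member stood at -0.10 (log2) in each AHARIBO library and between -0.03 and 0.01 in the standard libraries. As a share of all reads, the members made up 0.182%, 0.180% and 0.175% of the standard libraries and 0.173% and 0.169% of the AHARIBO libraries.

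Other genes with a short coding sequence were lower as well. Members are short, with 195 to 1326 nt of coding sequence and a median of 574.5 nt, and all 78 were below the coding gene median of 1383 nt. When the coding genes tested were divided into 8 groups by coding length, the median log2 fold change rose at each step from -0.11 in the shortest group (up to 564 nt) to 0.12 in the longest (3159 nt and over). The 38 members in the shortest group had a median of -0.11, the same as its 1564 coding genes, and 30 of them (78.9%) were below 0 next to 69% of the genes. In the next group, of 567 to 840 nt, the median was -0.14 for 20 members and -0.08 for all 1533 genes, with 19 members (95%) and 63.1% of the genes below 0. The 13 and 7 members of the following 2 groups had 53.8% and 71.4% below 0, against 58.1% and 55.5% of the genes. After subtraction of the median of each gene's length group, the member median was -0.00, with 42 members below 0 and 36 above. The part of length in the member shift was not tested.

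Within the members, base composition moved with the differences more closely than length did. Across the 78 members, the log2 fold change and the GC content of the coding sequence had r = -0.68 (Spearman's rho -0.69), compared with r = 0.24 for log2 coding length. Over the coding genes, r was -0.36 with GC content (12367 genes) and 0.22 with log2 coding length (12374 genes). The coding sequences of the members reach only 1326 nt, so length has a restricted range among them. The members are ordinary in composition, with a median GC content of 53.6% (41.6% to 65.6%) next to 53.4% for the coding genes. Of the 39 members with more GC than the member median, 37 were lower in AHARIBO RIBO-seq, at a median of -0.16 (log2 fold change). Of the other 39, 24 were lower, with a median of -0.02. The 4 members called all belong to the GC-rich side, at 61.1% for Mrps24, 56.5% for Mrpl52, 57.6% for Mrpl2 and 64.2% for Mrps26. Mrpl1 had the lowest GC content of all members, 41.6%, and Mrps31 had 47.3%. Mrpl41, with the largest positive log2 fold change, had 50.1% and a short coding sequence of 405 nt.

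The same order held in the coding genes as a whole. Divided into 8 groups by GC content, they had a median log2 fold change of 0.20 in the group poorest in GC (up to 45.1%) and -0.20 in the richest (60.3% and over). In the richest group, which holds Mrps24 and Mrps26, 11.8% of the coding genes were called lower. In the group of 55.5% to 57.7%, which holds Mrpl52 and Mrpl2, the share was 1.68%. Within each GC group the 3 to 15 members had a lower median than the coding genes, and after subtraction of the group medians the member median was -0.07, with 62 members below 0 and 16 above. GC content and length were examined after the values were seen, genes are not independent replicates, and the part of either in the member differences was not tested.

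**Figure D3:**
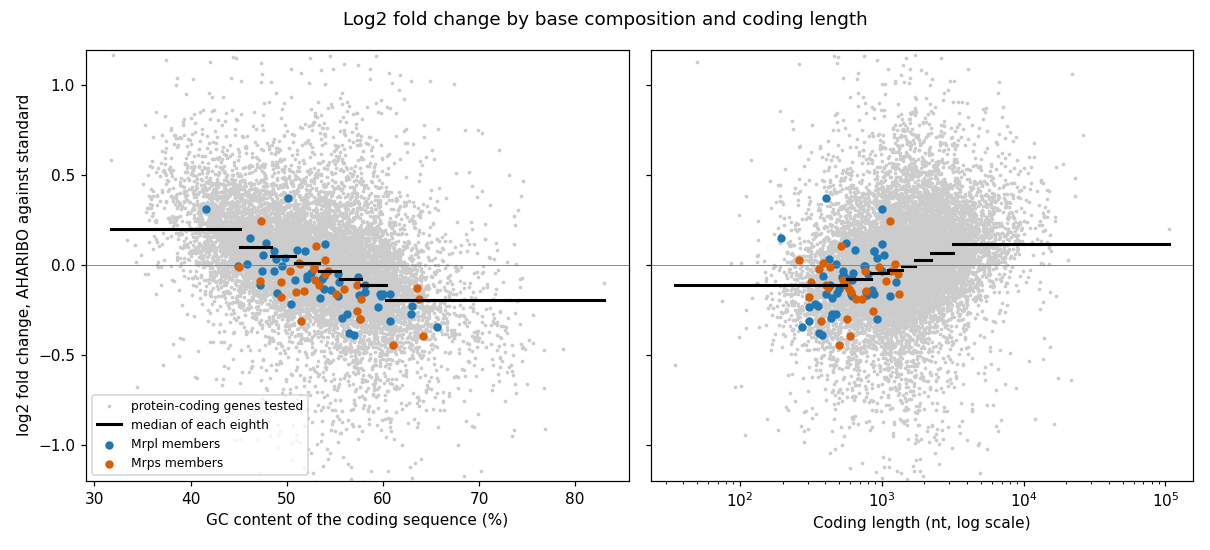
Log2 fold change of AHARIBO against standard RIBO-seq by GC content of the coding sequence (left, in %) and by coding length (right, in nt on a log scale). Grey points are protein-coding genes tested within ±1.2 on the vertical axis, black bars the medians of 8 groups of nearly equal size, and coloured points the 78 members. The bars fall from 0.20 to -0.20 with GC content and rise from -0.11 to 0.12 with length, and the members follow the downward course on the left.

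Methionine codons were fewer in the members than in the typical gene, with a median of 4 (1 to 12) against 10. Mrpl20 and Mrpl33 have the initiator codon as their only in-frame ATG. Mrpl20 had 32.4, 26.4 and 31.9 CPM in standard and 26.2 and 27.0 CPM in AHARIBO RIBO-seq, and its groups overlapped (log2 fold change -0.18, SE 0.097, edgeR adjusted p = 0.319). Mrpl33 had 9.07, 8.17 and 6.50 CPM against 9.71 and 8.09 CPM, also with overlap (log2 fold change 0.15, SE 0.153, edgeR adjusted p = 0.649), and 72.9% of its coding windows occur in other genes. The 42 members with fewer than 5 methionine codons gave -0.12 as their median log2 fold change, with 36 below 0. For the 36 members with 5 or more it was -0.06, with 25 below 0. Across the members, the number of methionine codons and the log2 fold change had r = 0.28. That number also grows with coding length, and the 2 were not separated.

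By role, the members of the large subunit with a bacterial homologue stood at a median of -0.08 in log2 fold change (30 genes, 23 below 0, 1 called), and the mitochondria-specific ones had -0.13 (20 genes, 15 below 0, 1 called). In the small subunit, the medians were -0.12 (16 genes, 14 below 0, 1 called) and -0.09 (10 genes, 7 below 0, 1 called). With 5.12% of the coding genes called and 50.6% of them below 0, a single call in a class of this size is no result about the class. The small regions of the ribosome had few members each and showed no call beyond those already given.

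The stalk recruits translation factors. All 4 of its members were below 0 and none was called, with log2 fold changes of -0.16 for Mrpl12, -0.17 for Mrpl10, -0.08 for Mrpl11 and -0.23 for Mrpl53. Mrpl12 held 42.5, 41.2 and 37.9 CPM in standard and 35.3 and 37.8 CPM in AHARIBO RIBO-seq, groups that missed overlapping by a narrow margin (edgeR adjusted p = 0.335). The 7 members at the central protuberance, which bridges the subunits, were all below 0, with a median of -0.17 and Mrpl52 as the single call.

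The exit tunnel is where the new chain leaves the ribosome toward the inner membrane. Its 6 members divided evenly around 0. Mrpl44 (0.12), Mrpl24 (0.08) and Mrpl45 (0.04), the last of which tethers the ribosome to the membrane, were on the positive side. Mrpl47 (-0.00), Mrpl22 (-0.08) and Mrpl23 (-0.30) were on the other, and none was called. Mrpl24 held 39.2, 39.0 and 38.9 CPM in standard and 42.7 and 39.9 CPM in AHARIBO RIBO-seq. These values did not overlap, yet the difference was within the error of the fit (SE 0.086, edgeR adjusted p = 0.654). For Mrpl45 the values were 33.1, 34.9 and 32.7 CPM against 34.8 and 34.4 CPM, with overlap.

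At the decoding site and the messenger channel, Mrps12 had a log2 fold change of -0.13 and Mrps5 one of -0.05, next to -0.44 for Mrps24. Mrps12, the homologue of the bacterial decoding protein S12, held 10.3, 12.5 and 10.2 CPM in standard and 9.71 and 10.6 CPM in AHARIBO RIBO-seq, with overlap (edgeR adjusted p = 0.673). The 3 relatives of bacterial S18 occupy different places, Mrps18a being found in the large subunit in ribosome structures. Their log2 fold changes were -0.14 for Mrps18a, -0.03 for Mrps18b and -0.01 for Mrps18c, none called.

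The members Mrpl58, Mrps30 and Mrps36 stand apart from the plain structural proteins by what they do or where they sit. Mrpl58 is a peptidyl-tRNA hydrolase that releases stalled chains and is built into the large subunit. It held 23.5, 18.2 and 21.3 CPM in standard and 19.1 and 18.1 CPM in AHARIBO RIBO-seq, overlapping groups (log2 fold change -0.17, SE 0.110, edgeR adjusted p = 0.417). Mrps30, found in the large subunit despite its symbol, had 33.9, 32.1 and 29.2 CPM against 30.2 and 26.9 CPM (log2 fold change -0.16, SE 0.094, edgeR adjusted p = 0.369). Mrps36 had 8.85, 10.8 and 8.88 CPM against 9.19 and 7.69 CPM, within its spread and with the shared sequence noted above (log2 fold change -0.18, SE 0.147).

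**Figure D4:**
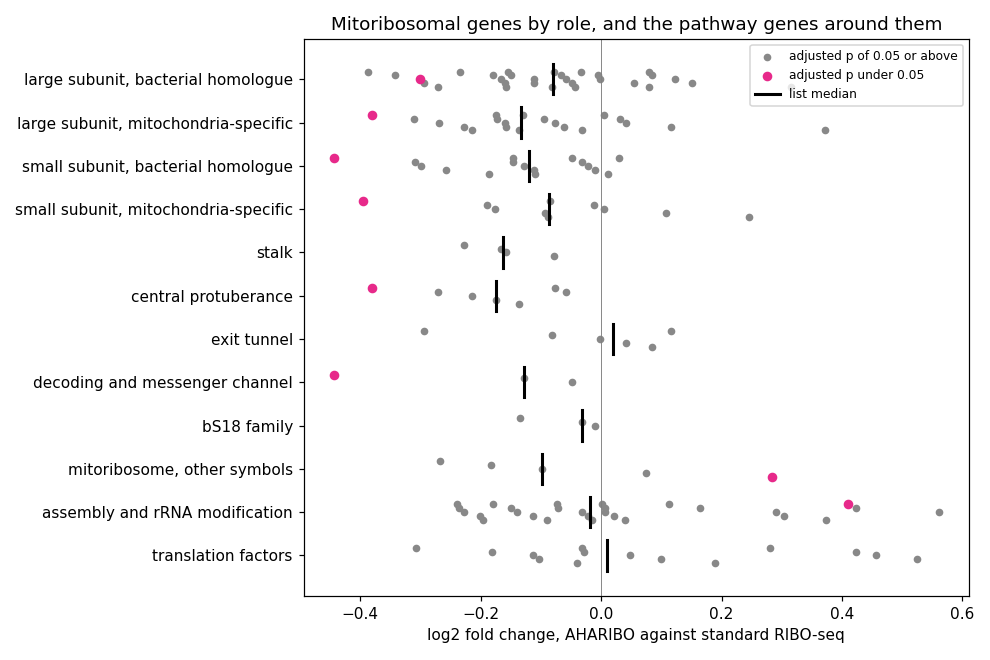
Log2 fold change of AHARIBO against standard RIBO-seq for the members by role and for 3 lists of other mitoribosomal genes, 1 point a gene, with the list median as a black bar and genes with an edgeR adjusted p under 0.05 in colour. A gene can stand in more than 1 role. The bars of the 4 subunit classes lie between -0.13 and -0.08 and that of the exit tunnel at 0.02; the 2 coloured points to the right of 0 are Ptcd3 and Gtpbp10.

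Genes around the members completed the pathway. Of the mitoribosomal proteins that carry other symbols, 5 were found (Dap3, Ptcd3, Chchd1, Aurkaip1 and Gadd45gip1), with a median level of 34.9 CPM per kilobase, equal to that of the members. Ptcd3, a small subunit protein of the pentatricopeptide repeat family, was called higher. It held 38.1, 44.0 and 36.8 CPM in standard and 50.2 and 46.6 CPM in AHARIBO RIBO-seq, without overlap (log2 fold change 0.28, SE 0.088, edgeR adjusted p = 0.0496). Its coding sequence is long among these proteins, 2055 nt, and poor in GC, 43.2%. The other 4 were not called, with log2 fold changes of 0.08 for Dap3, -0.10 for Chchd1, -0.18 for Aurkaip1 and -0.27 for Gadd45gip1.

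Of 28 genes for mitoribosome assembly and rRNA modification, 1 was called higher and 0 lower, with a median of -0.02. Their log2 fold changes ranged from -0.24 to 0.56. The call was Gtpbp10, a GTPase that acts late in the assembly of the large subunit, with 15.8, 14.4 and 12.1 CPM in standard and 18.3 and 19.7 CPM in AHARIBO RIBO-seq. Its groups did not overlap (log2 fold change 0.41, SE 0.116, edgeR adjusted p = 0.0281), and its GC content was 44.1%. Each of these 2 calls was lost in about as many settings as it was kept, 8 of 14 for Ptcd3 and 7 of 14 for Gtpbp10. None of 14 mitochondrial translation factors was called, and their median was 0.01. With 5.12% of the coding genes called, the single calls of Ptcd3 and Gtpbp10 are no result about their lists. Per kilobase, the median was 11.2 for assembly genes and 11.6 for translation factors. The factors spanned 0.956 to 90.3, and the highest of them, Slirp, an RNA-binding protein of mitochondrial mRNAs, lay above every member.

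Set beside related gene families, the members had the lowest median level per kilobase, and all 3 lists had medians below 0 between the methods. The 78 cytosolic ribosomal proteins had a median level of 311 CPM per kilobase and a median of -0.20 in log2 fold change, with 76 below 0 and 20 called lower. The 80 nuclear-encoded respiratory chain subunits tested had 78.9 CPM per kilobase, a median of -0.12 with 66 below 0, and 11 called lower. Over all coding genes 2.53% were called lower, and in the shortest group by length, where the median lengths of both lists fall, 9.78% were. Both AHARIBO libraries were below all 3 standard ones in 43 cytosolic ribosomal proteins and 44 respiratory chain subunits. The members had 30 such genes, and this held for 17.1% of the coding genes, so it was not particular to the members. The ratio between the limits of the level, 3.01 for the members, was 2.82 for cytosolic ribosomal proteins and 4.67 for respiratory chain subunits, so that a narrow band was not particular to the members. Median coding lengths were 453 nt and 417 nt, shorter than in the members, and median GC contents were 53.1% and 53.5%. After subtraction of the medians of the length groups, the 3 lists stood at -0.10 for cytosolic ribosomal proteins, -0.03 for respiratory chain subunits and -0.00 for the members. After subtraction of the medians of the GC groups, they stood at -0.18, -0.11 and -0.07. The differences between the lists were not tested.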

How the data were processed

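Ribosome profiles of mESCs by standard RIBO-seq (3 libraries) and AHARIBO RIBO-seq (2 libraries) were analysed from counts of reads per transcript deposited by the authors, with and without duplicate reads. The authors trimmed reads with Trimmomatic 0.36, removed rRNA and tRNA reads, aligned with STAR to Gencode M17 transcripts (GRCm38.p6) and removed antisense and duplicate reads. Counts without duplicates were used. The sources used here name no molecular identifiers, and where reads carry none, duplicate removal can also take independent fragments. The floor of 3 reads covers counting error only.

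Gene names, types and coding sequences came from Gencode M21, which held 99.8% of the 135276 transcripts. For 6 members it holds another version of the transcript. CPM used TMM factors from edgeR 4.0.16 (R 4.3.3). Transcripts with 1 CPM in at least 1 library were tested by the quasi-likelihood method of edgeR, no block for replicate number being used, with Benjamini-Hochberg adjustment over all transcripts tested. Standard errors were derived from the F statistics and are approximate. DESeq2 1.42.0 was an alternative, and both tools were tested on simulated data.

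Members called, the 5 highest and 5 lowest per kilobase, members of the stalk, exit tunnel, decoding and S18 lists, Mrpl58, Mrps30, Mrps36 and called pathway genes were named by rule. Others named are Mrpl55, Mrps31, Mrpl33, Mrpl57 and Mrps17, and examples for shared sequence. The members, gene lists and rules were chosen with earlier results of these data known. Of columns with values per sample, 0 were left unused. The alternatives covered normalization, tool, filter, feature, duplicates, replicate block, length and each library left out.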

Additional observations from a re-analysis of the deposited data

How the results depend on the processing

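The direction of the median member was the same under every setting run, at -0.12 to -0.05, beside -0.003 for the coding genes in the fit as reported. With 1 transcript per gene, 919 transcripts and 1 member were called and the medians were -0.073 for the members and 0.026 for the coding genes. With counts summed over the transcripts of a gene, 88 genes and 0 members were called by edgeR (11 members at an unadjusted p under 0.05; DESeq2 was not run on sums), the medians were -0.052 for the members and 0.026 for the coding genes, the ratio of upper to lower level limit was 6.75 and the median level 84.8 CPM per kilobase. In such sums, reads that fit several transcripts may enter repeatedly. DESeq2 called 272 transcripts and 1 member. Library sizes in place of TMM moved the median of all transcripts to 0.04, that of the coding genes to 0.031 and that of the members to -0.068. With duplicates kept, the members took 0.134% of standard and 0.123% of AHARIBO reads, with a level ratio of 3.27 and a median level of 26.5. With every annotated transcript of the member genes, coding or not, the shares were 0.528% and 0.502%, again with reads that may be counted more than one time. By transcript length, the ratio was 5.75 and the median 15.4.

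Leaving out 1 library gave 510 (without AHARIBO replicate 1) to 3829 (without AHARIBO replicate 2) transcripts called and 1 to 6 members. With 1 AHARIBO library, its spread was taken from the standard libraries. Calls were 1 member without AHARIBO replicate 1 or without standard replicate 1, 2 members without AHARIBO replicate 2 or standard replicate 3, and 6 without standard replicate 2; Mrps24 was among them each time. Settings chosen after seeing the data gave a difference between GC-rich and GC-poor members of -0.20 to -0.10, one between the shortest and longest coding groups of -0.30 to -0.16, and 3 calls with a median of -0.12 for the 46 members without shared coding windows. With the replicate number as a block, 1792 transcripts and 2 members (Mrps24 and Mrps26) were called, and Mrpl52 and Mrpl2 were not. Deviations of same-numbered libraries correlated at 0.07 and -0.29. With 2 AHARIBO libraries these deviations mirror each other, so the check says little, and the numbers were not taken as pairing.

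Members near 0 changed sign. Mrpl16 turned to 0.024 with 1 transcript per gene, 0.029 with sums and 0.030 with library sizes, and ran from -0.151 to 0.145 when 1 library was left out. Mrpl47 turned to 0.028 with 1 transcript per gene and 0.033 with library sizes, and ran from -0.063 to 0.128 with 1 library left out. Mrps18c turned to 0.018, 0.027 and 0.024 under the settings given for Mrpl16, and ran from -0.112 to 0.097. Mrps18b turned to 0.002 with duplicates and 0.003 with library sizes, and ran from -0.080 to 0.022. Mrps5 ran from -0.160 to 0.049 with 1 library left out, and Mrpl45 turned to -0.005 with duplicates. The causes were not tested.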
